A study of Mus musculus with 5 samples.

Results

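The genes described here are 34 genes of the cell division cycle, 16 that act in DNA replication and 18 that act in mitosis, out of 78334 gene identifiers in the deposited count table. They were taken by name from a fixed list, which was chosen with earlier results of these data known. Shares of members set beside shares of all genes therefore describe the list and are not a test. All 34 had enough counts to be among the 24779 genes tested. RNA of visceral fat was measured in 5 libraries. The mice were males of the inbred strain C57BL/6 and were 8 weeks old when the diets began. The resveratrol group has 2 libraries, from mice on a diet with 60% of its energy as fat for 8 weeks given the plant polyphenol resveratrol afterwards at 2.25 mg/kg each day for 28 days by gastric tube, from 16 weeks of age. The obesity group has 2 libraries from mice on the same diet given vehicle by the same route. The control group has 1 library from mice on standard chow, given vehicle. Tissue was collected after 12 weeks. Whether the 2 libraries of a group stand for different mice is not in the labels, and p-values here measure the spread between libraries, which may be technical.

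A dividing cell first switches on genes of the replication machinery, under the control of E2F transcription factors, and copies its DNA in S phase. It later switches on a second wave of genes for chromosome condensation, spindle assembly and division, under the control of the MuvB, B-MYB and FOXM1 complexes. In resting cells both waves are repressed by pocket proteins. Mature fat cells of adult visceral fat rarely divide, and in diet-induced obesity division in this depot is known from progenitor cells, endothelial cells and macrophages. In a bulk sample, fewer dividing cells and less RNA per cell cannot be told apart.

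Known promoter motifs belong to each wave, and 4 windows are shown because they hold several matches to the motif of their class. The windows run from 250 bases before to 50 bases after a gene's start and come from RefSeq on build GRCm38.p6, on which they were searched on both strands. Of the 34 members, 13 replication genes and 15 mitosis genes had a window, and Mcm4, Gins2, Ccne2, Ccna2, Aurkb and Tpx2 had none. The first pair belongs to Mcm3 (chr1:20820263-20820562, minus strand) and Mcm6 (chr1:128359656-128359955, minus strand), with matches to the E2F motif in capitals. The second pair belongs to Top2a (chr11:99024140-99024439, minus strand) and Ccnb2 (chr9:70421505-70421804, minus strand), with matches to the cell cycle homology region (CHR) in capitals.
Mcm3: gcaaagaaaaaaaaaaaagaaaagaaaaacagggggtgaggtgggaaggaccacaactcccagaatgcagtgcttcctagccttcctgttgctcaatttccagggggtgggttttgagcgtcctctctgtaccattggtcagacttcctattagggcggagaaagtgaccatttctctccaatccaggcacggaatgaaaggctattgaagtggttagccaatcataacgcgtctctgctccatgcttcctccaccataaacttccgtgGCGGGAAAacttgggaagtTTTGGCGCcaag
Mcm6: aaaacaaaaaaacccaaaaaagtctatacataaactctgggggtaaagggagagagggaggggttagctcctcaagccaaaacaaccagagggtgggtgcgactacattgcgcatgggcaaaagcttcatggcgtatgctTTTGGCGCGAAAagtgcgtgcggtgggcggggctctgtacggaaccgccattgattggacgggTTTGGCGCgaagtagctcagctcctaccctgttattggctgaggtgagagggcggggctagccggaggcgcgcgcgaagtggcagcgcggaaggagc
Top2a: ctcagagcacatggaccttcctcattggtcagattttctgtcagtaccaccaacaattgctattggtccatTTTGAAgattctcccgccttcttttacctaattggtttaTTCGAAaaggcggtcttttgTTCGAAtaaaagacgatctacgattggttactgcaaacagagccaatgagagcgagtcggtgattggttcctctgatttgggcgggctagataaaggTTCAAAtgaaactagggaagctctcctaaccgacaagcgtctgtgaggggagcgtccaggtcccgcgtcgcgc
Ccnb2: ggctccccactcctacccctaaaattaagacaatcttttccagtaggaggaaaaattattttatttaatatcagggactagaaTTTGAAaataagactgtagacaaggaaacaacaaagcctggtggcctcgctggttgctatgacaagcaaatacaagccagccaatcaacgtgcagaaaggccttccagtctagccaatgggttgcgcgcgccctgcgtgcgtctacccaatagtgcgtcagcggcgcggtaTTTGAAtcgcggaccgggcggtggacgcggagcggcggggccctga
The E2F motif was searched as TTTCCCGC, TTTCGCGC, TTTGCCGC and TTTGGCGC, and 2 of the 3 matches in Mcm6 overlap on opposite strands. It was in 6 of 13 replication genes (Mcm3, Mcm5, Mcm6, Mcm7, Cdc6 and Cdt1) and in 1 of 15 mitosis genes (Cdk1). Over all genes with a window it was in 704 of 27025 genes, and in 2.3% of their 32851 promoter windows of the same length. The CHR was searched as TTTGAA and TTCGAA. It was in 11 of 15 mitosis genes, in 2 of 13 replication genes (Mcm2 and Mcm7), in 5854 of all 27025 genes and in 19.2% of all windows. The CCAAT box, the site of the factor NF-Y that often stands next to a CHR, was in 13 of 15 mitosis genes. It was in 8 of 13 replication genes, in 11096 of all 27025 genes and in 37.4% of all windows. A match describes these letters and does not show that a factor binds there.

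Tissue content differed between the libraries. Total counts ran from 19540961 to 27026597. The 10 adipocyte marker genes summed to 6061 and 26030 CPM (counts brought to a common library size with TMM factors) in the resveratrol libraries, 23440 and 26030 CPM in the obesity libraries and 379 CPM in control. Resveratrol library 1, resveratrol library 2 and control thus had 24.5%, 105% and 1.53% of the obesity mean. The 8 macrophage markers stood at 15.7% and 113% of their obesity mean with resveratrol and at 6.08% in control. No adipocyte or macrophage marker was at 0 in any library. Smooth muscle markers summed to 46100 CPM in resveratrol library 1, beside 441 CPM in library 2, with 649 and 362 CPM in obesity and 2336 CPM in control. Epididymis markers summed to 3407 and 0.350 CPM under resveratrol, 17.8 and 0.285 CPM in obesity, and 60400 CPM in control. Most abundant in these lists were Myh11 and Acta2, at 19240 and 9414 CPM in resveratrol library 1, and Gpx5 and Lcn8, at 28070 and 9441 CPM in control. All 10 epididymis markers had counts in the control library, while 8 were at 0 in resveratrol library 2 and 7 in obesity library 2. The epididymis sum of resveratrol library 1 describes Crisp1, which made up 3393 of its 3407 CPM. There Spink11 had 11.5 CPM, Gpx5 had 0.182 CPM and Lcn8 was at 0. Resveratrol library 1 and the control library thus carried high levels of markers of other tissue, against their label of visceral fat, and the main counts, class medians and fitted differences are given with and without resveratrol library 1. The control library has no replacement, so a difference from it cannot be told apart from a difference in tissue.

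Both classes were lowest in the control library and in resveratrol library 1, highest in the obesity libraries, and intermediate in resveratrol library 2. The 18 mitosis genes summed to 69.03 and 186 CPM in resveratrol libraries 1 and 2, to 267 and 291 CPM in obesity libraries 1 and 2, and to 39.1 CPM in control. The 16 replication genes summed to 180 and 280 CPM in the resveratrol libraries, to 335 and 424 CPM in the obesity libraries, and to 141 CPM in control. For neither sum did the resveratrol and obesity libraries overlap. The mitosis sum stood at 24.8% and 66.8% of its obesity mean with resveratrol and at 14.0% in control. The replication sum stood nearer to obesity, at 47.4% and 73.8% with resveratrol and at 37.2% in control.

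The ratio of the mitosis sum to the replication sum puts this in one number per library. It was 0.383 and 0.664 in resveratrol libraries 1 and 2, 0.796 and 0.686 in obesity libraries 1 and 2, and 0.277 in control. Resveratrol library 2 lay just under obesity library 2, by less than the gap between the obesity libraries, whereas resveratrol library 1 and the control library lay far below both. With 2 libraries against 2 an exact two-sided permutation test cannot give a p below 0.333, so none is given. The ratio was low in the same libraries in which the adipocyte and macrophage markers were low, and the part of the tissue content in it was not tested.

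**Figure D1:**
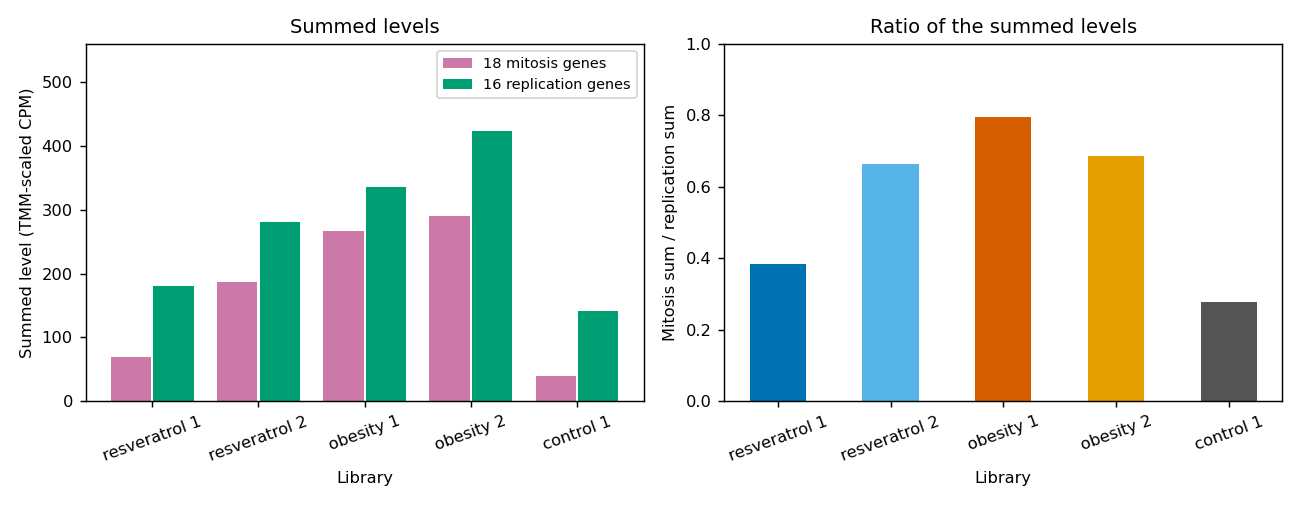
Left, summed TMM-scaled CPM of the 18 mitosis genes and the 16 replication genes in each of the 5 libraries; right, the mitosis sum divided by the replication sum, with 1 bar per library and no error bars. The ratio ran from 0.277 in the control library to 0.796 in obesity library 1, with resveratrol library 2 at 0.664 and resveratrol library 1 at 0.383.

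The first comparison asked how resveratrol given after the high-fat diet related to obesity given vehicle. All 34 members were lower with resveratrol, where 45.1% of all tested genes had a log2 difference below 0. The median log2 difference was -1.10 for mitosis genes, a 2.15-fold lower level, and -0.74 for replication genes, a 1.67-fold lower level, beside 0.05 over all tested genes. By the quasi-likelihood test of edgeR none of the 34 was called at an adjusted p of 0.05, nor were any other genes (0% of all tested), and each member's adjusted p was 0.899. Pcna and Cdk1 had an unadjusted p under 0.05 in the lower direction, 2 of 34 members, against 0.428% of all genes. In either direction 581 genes, 2.34%, had one. DESeq2 called 0 of the 34 lower, against 0.0807% of all genes.

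For 29 of the 34 members both resveratrol libraries lay below both obesity libraries, which held for 16.7% of all tested genes. They were 17 of the 18 mitosis genes and 12 of the 16 replication genes. The exceptions were Aurkb, Mcm2, Mcm4, Ccne1 and E2f1. Resveratrol library 2 alone was below both obesity libraries for 30 members, against 29.9% of all genes. Its adipocyte and macrophage marker sums were near those of obesity, at 105% and 113% of the obesity mean. Single macrophage markers in it ran from 46.2% to 181%. Its endothelial, erythroid and B cell sums stood at 187%, 180% and 558%, and its T cell and smooth muscle sums at 96.6% and 87.3%. Its progenitor and mesothelial sums stood at 127% and 270%, and its median mesothelial marker at 842%. In that library the median member stood at 70.7% of its obesity mean for mitosis genes, from 49.8% to 80.6%, and at 75.2% for replication genes, from 57.1% to 98.1%. In resveratrol library 1 these medians were 24.9% for mitosis genes and 42.4% for replication genes. Without resveratrol library 1 all 34 members were still lower, against 48.8% of all genes. The median log2 difference was -0.49 for mitosis genes and -0.40 for replication genes, and 0 members were called, against 0.0329% of all genes in the lower direction. Without resveratrol library 2 the medians were -1.996 and -1.23, and 18 members were called, 13 mitosis and 5 replication genes, against 9.61% of all genes. Each of these fits leaves 1 resveratrol library, whose spread is assumed to be that of the obesity pair, and the second sets the library with 46100 CPM of smooth muscle markers alone against obesity.

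**Figure D2:**
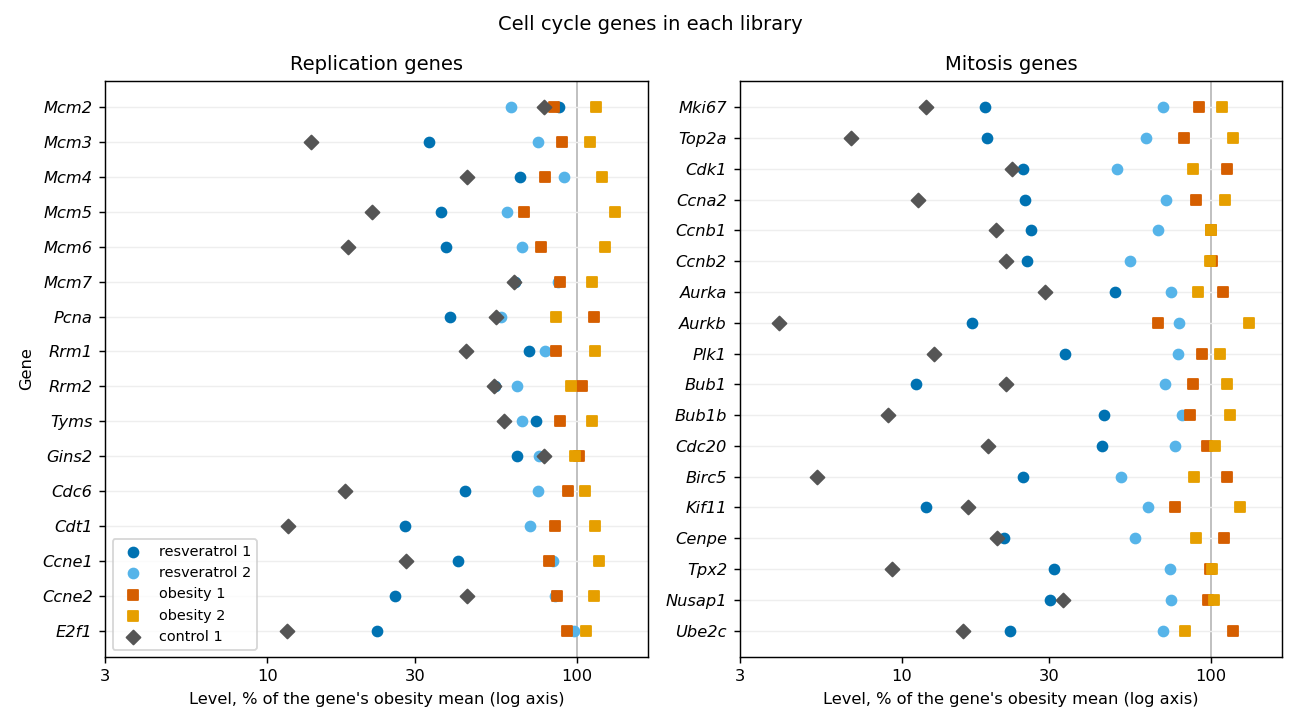
TMM-scaled CPM of each member in each library as a percentage of that gene's mean over the 2 obesity libraries, on a log axis; replication genes left, mitosis genes right, 1 point per library. Resveratrol library 2 sits between 49.8% and 98.1%, resveratrol library 1 lies to the left of it for all 18 mitosis genes and 14 of 16 replication genes, and the control library reaches 4.02%.

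Among replication genes, the 6 subunits of the MCM helicase, which unwinds the parental strands, differed among themselves. Mcm3 was at 13.0 and 29.3 CPM under resveratrol, against 35.0 and 42.9 CPM in obesity, for a log2 difference of -0.88 (SE 0.478). Mcm5 was at 10.8 and 17.8 CPM under resveratrol against 20.1 and 39.6 CPM in obesity, and Mcm6 at 17.5 and 30.8 CPM under resveratrol against 35.4 and 57.1 CPM in obesity, so that the groups did not overlap for these 3. Mcm2 was at 20.7 and 14.4 CPM under resveratrol, against 19.9 and 27.3 CPM in obesity, and Mcm4 at 14.2 and 19.7 CPM under resveratrol against 17.1 and 26.2 CPM in obesity. For both of these the groups overlapped, and Mcm2 was 1 of the 2 members, with Tyms, that stood higher in resveratrol library 1 than in library 2. Mcm7 was at 19.7 and 26.97 CPM under resveratrol against 27.4 and 34.8 CPM in obesity, so that the groups were separate but close.

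The helicase is loaded onto DNA and started by a further set of genes. Cdc6, a loader of the helicase, was at 1.86 and 3.23 CPM under resveratrol, against 4.01 and 4.57 CPM in obesity. Cdt1, its partner in loading, was at 6.31 and 16.0 CPM under resveratrol against 19.3 and 26.0 CPM in obesity, for a log2 difference of -1.02 (SE 0.564). Gins2, a subunit of the complex that activates the helicase, was at 8.35 and 9.79 CPM under resveratrol against 13.2 and 12.8 CPM in obesity, with replicates close together in both groups. The groups did not overlap for any of the 3.

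Pcna, the sliding clamp that holds DNA polymerase on its template, had the smallest p of the replication genes. It was at 16.9 and 24.8 CPM under resveratrol, against 49.5 and 37.2 CPM in obesity, for a log2 difference of -1.06 (SE 0.328, unadjusted p = 0.0301, adjusted p = 0.899 in edgeR). The processed pseudogene Pcna-ps2 was counted about as often, at 21.2 and 33.5 CPM under resveratrol, 56.3 and 53.1 CPM in obesity and 17.4 CPM in control, so the split of reads between the copies is uncertain. Summed over both, the level was 38.1 and 58.3 CPM under resveratrol, 106 and 90.4 CPM in obesity beside 41.2 CPM in control, and the groups still did not overlap.

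The nucleotide supply genes stood at 54.6% to 74.0% of their obesity means in resveratrol library 1, where the median replication gene stood at 42.4%. Rrm1, the large subunit of ribonucleotide reductase, was at 24.6 and 27.6 CPM under resveratrol, against 30.0 and 40.1 CPM in obesity, for a log2 difference of -0.42 (SE 0.276). Rrm2, the subunit whose level limits the enzyme in S phase, was at 6.08 and 7.15 CPM under resveratrol against 11.6 and 10.7 CPM in obesity. Tyms, thymidylate synthase, was at 6.99 and 6.30 CPM under resveratrol against 8.34 and 10.6 CPM in obesity. The pseudogene Tyms-ps took at most 1.05 CPM in any library. Both resveratrol libraries lay close together for these 3 genes and below both obesity libraries.

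The genes that drive entry into S phase stood at 84.1% to 98.1% of their obesity means in resveratrol library 2 and at 22.7% to 41.5% in library 1. E2f1, an activating E2F factor, was at 7.94 and 34.3 CPM under resveratrol, against 32.6 and 37.4 CPM in obesity. Its resveratrol library 2 lay inside the obesity range, at 98.1% of the obesity mean, and without resveratrol library 1 its log2 difference was -0.02. Ccne1, a cyclin that activates CDK2 at the start of S phase, was at 3.81 and 7.73 CPM under resveratrol against 7.51 and 10.9 CPM in obesity. Its paralog Ccne2 was at 1.36 and 4.47 CPM under resveratrol against 4.53 and 5.99 CPM in obesity. Library 2 reached into the obesity range for Ccne1 and E2f1 and lay just below it for Ccne2.

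Among mitosis genes, the kinase gene Cdk1 and its cyclins were all lower in both resveratrol libraries. Cdk1, the kinase that triggers mitosis, was at 4.36 and 8.78 CPM under resveratrol, against 19.8 and 15.5 CPM in obesity, for a log2 difference of -1.42 (SE 0.495, unadjusted p = 0.043, adjusted p = 0.899 in edgeR). Ccnb2, a B-type cyclin, was at 3.22 and 6.92 CPM under resveratrol against 12.7 and 12.6 CPM in obesity. Cdk1 and Ccnb2 stood at 49.8% and 54.6% of their obesity mean in resveratrol library 2, against 67.4% for Ccnb1 and 71.4% for Ccna2. Ccnb1, the other B-type cyclin, was at 1.13 and 2.91 CPM under resveratrol against 4.33 and 4.33 CPM in obesity. The pseudogene Ccnb1-ps took counts as well, at 0.590 and 2.18 CPM under resveratrol, against 2.40 and 3.81 CPM in obesity. Ccna2, the A-type cyclin of S phase and G2, was at 3.40 and 9.68 CPM under resveratrol against 12.1 and 15.0 CPM in obesity.

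The chromosomal passenger complex corrects faulty attachments of chromosomes to the spindle. Its survivin subunit gene Birc5 was at 4.04 and 8.36 CPM under resveratrol, against 18.4 and 14.4 CPM in obesity, for a log2 difference of -1.40 (SE 0.515). Its kinase, encoded by Aurkb, had 1.91 and 8.86 CPM under resveratrol, against 7.61 and 14.9 CPM in obesity. Aurkb was the only mitosis gene whose groups overlapped, with obesity library 1 below resveratrol library 2. Aurka, the related kinase of the spindle poles, was at 4.04 and 6.14 CPM under resveratrol against 9.02 and 7.51 CPM in obesity, and Tpx2, which activates it, at 5.13 and 12.1 CPM under resveratrol against 16.4 and 16.6 CPM in obesity. Plk1, a kinase of mitotic entry and exit, was at 3.13 and 7.27 CPM under resveratrol against 8.65 and 9.89 CPM in obesity.

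A further set of genes builds, untangles or moves mitotic chromosomes and the spindle. Mki67, whose protein Ki-67 coats mitotic chromosomes and is used to stain dividing cells, was at 8.71 and 32.8 CPM under resveratrol, against 42.8 and 51.0 CPM in obesity, for a log2 difference of -1.18 (SE 0.693). Top2a, the topoisomerase that untangles replicated chromosomes, was at 7.08 and 23.0 CPM under resveratrol against 30.7 and 44.2 CPM in obesity. Mki67 and Top2a stood at 18.6% and 18.9% of their obesity means in resveratrol library 1 and at 69.9% and 61.5% in library 2. Kif11, a motor that pushes spindle poles apart, was at 1.45 and 7.62 CPM under resveratrol against 9.28 and 15.0 CPM in obesity. Cenpe, a kinetochore motor, was at 2.36 and 6.26 CPM under resveratrol against 12.1 and 9.84 CPM in obesity, and Nusap1, a spindle microtubule protein, at 2.81 and 6.92 CPM under resveratrol against 9.12 and 9.51 CPM in obesity. None of these 5 genes had overlapping groups.

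Genes of the spindle checkpoint and of mitotic exit included the mitosis gene with the smallest fitted difference, Bub1b. Bub1b, a spindle checkpoint kinase-like gene, was at 5.54 and 9.91 CPM under resveratrol, against 10.5 and 14.1 CPM in obesity, for a log2 difference of -0.67 (SE 0.480). Cdc20, an activator of the ligase that ends mitosis, was at 4.63 and 8.01 CPM under resveratrol against 10.2 and 10.8 CPM in obesity. Ube2c, the ubiquitin-conjugating enzyme of that ligase, was at 5.58 and 17.5 CPM under resveratrol against 29.5 and 20.5 CPM in obesity. Bub1, a further checkpoint kinase, had the lowest share of obesity in resveratrol library 1, 11.2%, at 0.499 CPM from 11 counts (95% exact Poisson interval 0.249 to 0.893 CPM, counting error only). In resveratrol library 2 it had 3.19 CPM, against 3.91 and 5.04 CPM in obesity. Of the members, 8 overlap another protein-coding gene in GENCODE M21 (Mcm7, Gins2, Cdt1, Ccne2, Ccna2, Cdc20, Nusap1 and Ube2c). Their counts may hold reads of it, and the strand setting is unknown. Cdt1 lies on the same strand as the gene it overlaps, so for Cdt1 a known strand setting would not separate them.

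The fitted differences above include resveratrol library 1. Without it they were -0.40 for Mcm3, -0.49 for Cdt1, -0.80 for Pcna and -0.33 for Rrm1 among replication genes. Among mitosis genes they were -0.99 for Cdk1, -0.96 for Birc5, -0.51 for Mki67 and -0.30 for Bub1b. All 8 were smaller in size than with that library. Among the other members, Mcm2 and Tyms went the other way. Their differences were -0.42 and -0.51 with resveratrol library 1 and -0.70 and -0.57 without it.

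**Figure D3:**
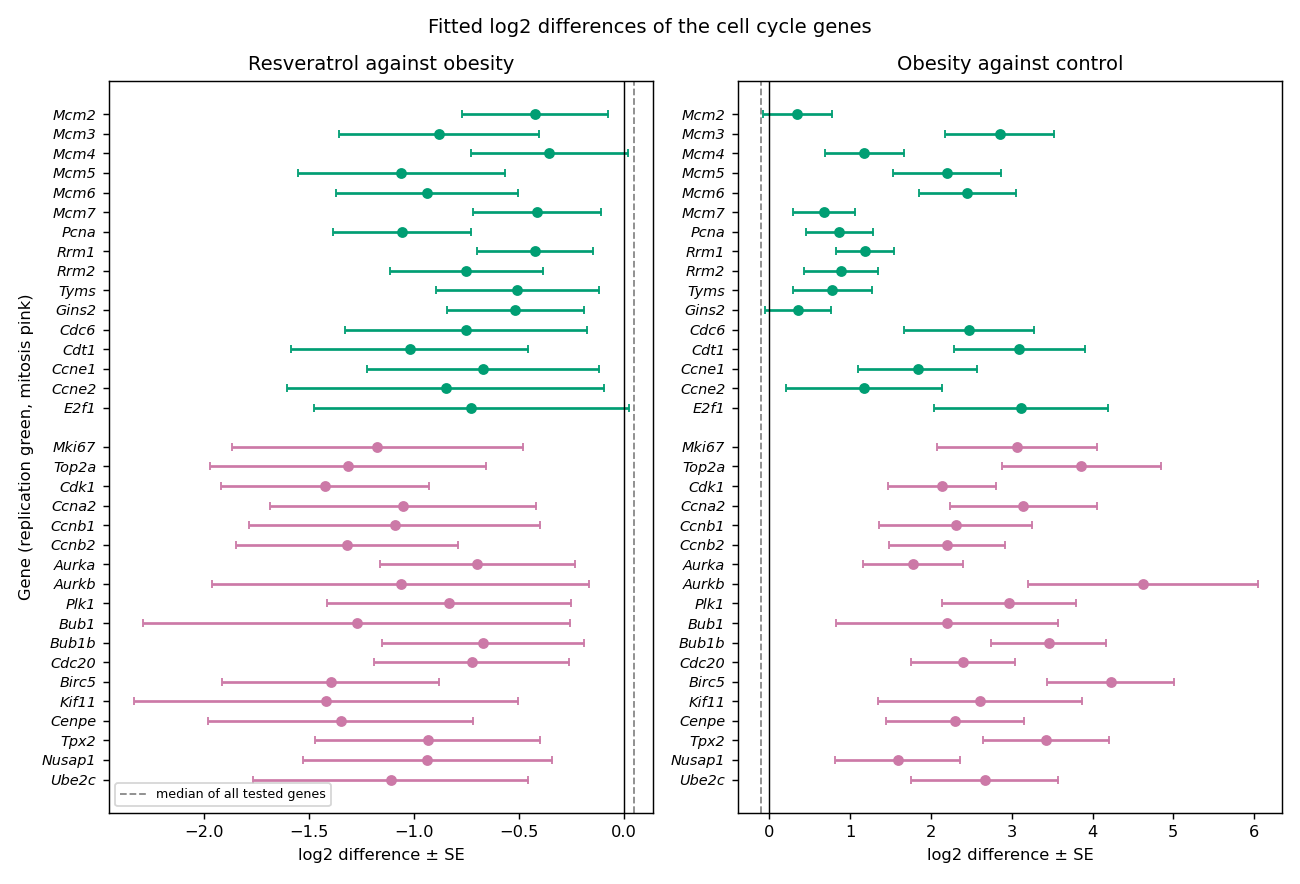
Fitted log2 difference of each member with its standard error, resveratrol against obesity on the left and obesity against control on the right; replication genes in green above, mitosis genes in pink below, and the dashed line the median of all tested genes. All 34 members lie below 0 on the left and above 0 on the right, and none passed the adjusted threshold.

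The second comparison asked how obesity related to the lean control. For all 34 members the obesity libraries both lay above the control library, which held for 40.8% of all tested genes. The median log2 difference was 2.64 for mitosis genes, 6.22-fold, and 1.18 for replication genes, 2.27-fold, beside -0.10 over all tested genes. No member passed in edgeR's quasi-likelihood test, in which 0% of genes were called and 6018, 24.3%, had an unadjusted p under 0.05. An unadjusted p under 0.05 in the higher direction was reached by 13 mitosis and 7 replication genes, 20 in all, against 12.6% of all genes. DESeq2 called 12 mitosis and 6 replication genes higher, against 10.8% of all genes. Without resveratrol library 1, which enters through the shared spread, edgeR called 18 mitosis and 10 replication genes, against 20.3% of all genes. Without resveratrol library 2 it called 18 mitosis and 10 replication genes as well, against 19.5%. A fit of only the groups compared called 28 members, against 20.5%, and a fit with no filter 11, against 2.89%. This comparison shares the obesity libraries with the first one, so the opposite directions are not independent.

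Birc5 had the smallest p of the members, at 18.4 and 14.4 CPM in obesity and 0.871 CPM in control from 25 counts (95% exact Poisson interval 0.564 to 1.29 CPM). Its log2 difference was 4.22 (SE 0.786, adjusted p = 0.176 in edgeR, 1.01e-05 in DESeq2). Aurkb had the highest difference, 4.62 (SE 1.42), at 7.61 and 14.9 CPM in obesity and 0.453 CPM in control. Bub1b was at 10.5 and 14.1 CPM in obesity beside 1.12 CPM in control, and Top2a at 30.7 and 44.2 CPM in obesity beside 2.58 CPM in control. These 4 mitosis genes stood at 4.02% to 9.06% of their obesity mean in the control library.

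The replication genes differed widely in how far the control library lay below obesity. E2f1, Cdt1 and Mcm3 stood at 11.6%, 11.7% and 13.9% of their obesity mean there, at 4.04, 2.65 and 5.40 CPM. Cdc6 and Mcm6 followed, at 17.9% and 18.3%. At the other end, Mcm2 was at 18.5 CPM in control and Gins2 at 10.2 CPM, 78.6% and 78.3% of their obesity means. Their log2 differences, 0.35 for both with SEs of 0.429 and 0.404, were smaller than their standard errors. Mcm7 followed at 62.8%, Tyms at 58.3%, Pcna at 54.9% and Rrm2 at 54.1%. The helicase subunits, which work as one ring, spanned 13.9% to 78.6% of their obesity means in this library. No mitosis gene stood above 33.3%, the value of Nusap1.

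Between resveratrol and control, 31 of 34 members were higher with resveratrol, against 51.4% of all genes. None passed in edgeR, where 0% of genes were called and 4596, 18.5%, had an unadjusted p under 0.05. The median log2 difference was 1.61 for mitosis genes and 0.79 for replication genes, beside 0.05 over all tested genes. The 3 lower members were Mcm2, Pcna and Gins2. Gins2, at 8.35 and 9.79 CPM under resveratrol and 10.2 CPM in control, was the one member for which the control library exceeded both resveratrol libraries. For 27 members both resveratrol libraries lay above the control library, against 37.7% of all genes. DESeq2 called 4 members higher, all of them mitosis genes, against 8.29% of all genes. Without resveratrol library 1 edgeR called 19 members higher, against 18.5% of all genes, and without library 2 it called 5, against 11.0%. The medians were 2.11 for mitosis and 1.01 for replication genes without resveratrol library 1, and 0.72 and 0.59 without library 2.

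Genes of the same machinery outside the list were also mostly lower with resveratrol than in obesity. Of 49 other mitosis genes, 47 were lower with resveratrol than in obesity, where 45.1% of all tested genes were. Their median log2 difference was -0.83, and both resveratrol libraries lay below both obesity libraries for 31, against 16.7% of all genes. Of 38 other replication genes, 30 were lower, with a median of -0.40, and for 17 the groups did not overlap in that direction. None of either list passed in edgeR. Without resveratrol library 1, 43 of the 49 other mitosis genes were lower, with a median of -0.34. So were 33 of the 38 other replication genes, with a median of -0.43, and 48.8% of all genes. The ratio of the summed other mitosis genes to the summed other replication genes was 0.711 and 0.999 with resveratrol, 1.04 and 1.00 in obesity, and 0.634 in control. As for the members, resveratrol library 1 and the control library were the low ones and resveratrol library 2 was close to obesity. In resveratrol library 1 the other mitosis sum stood at 58.0% of its obesity mean and the median gene at 29.3%. For the other replication genes these were 83.2% and 65.3%, so the sums do not describe the median gene.

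The other replication genes with the smallest p in resveratrol against obesity were Gmnn, Tk1, Brca1 and Chek1. Gmnn, the inhibitor of Cdt1 that prevents a second round of replication, was at 5.54 and 8.36 CPM under resveratrol, against 15.0 and 13.6 CPM in obesity. Tk1, a thymidine kinase of S phase, was at 8.26 and 14.7 CPM under resveratrol against 23.4 and 22.8 CPM in obesity. Brca1, a DNA repair gene, was at 2.04 and 6.68 CPM under resveratrol against 13.3 and 13.2 CPM in obesity, and Chek1, a replication checkpoint kinase, at 1.27 and 1.32 CPM under resveratrol against 2.61 and 3.57 CPM in obesity. All 4 had separate groups, but they were chosen by their p in the same comparison. Over the whole list this held for 17 of 38 genes in that direction. Among other mitosis genes these were the kinetochore gene Spc25, the checkpoint gene Mad2l1, the chromosome motor Kif22 and Cks1b, a small partner of cyclin-dependent kinases. Spc25 was at 9.76 and 6.8 CPM under resveratrol against 17.9 and 13.1 CPM in obesity, and Mad2l1 at 7.49 and 7.38 CPM under resveratrol against 12.3 and 11.8 CPM in obesity. Kif22 was at 3.54 and 6.88 CPM under resveratrol against 10.8 and 9.80 CPM in obesity, and Cks1b at 21.1 and 23.0 CPM under resveratrol against 33.3 and 27.7 CPM in obesity. Against control, the genes named by the rule were Pola2, a DNA polymerase alpha subunit, at 27.5 and 30.0 CPM in obesity beside 7.56 CPM in control, and Orc1, of the origin recognition complex, at 1.20 and 1.71 CPM in obesity and a count of 0 in control, which allows up to 0.105 CPM. Anln, a scaffold of the cleavage furrow, was at 15.1 and 19.4 CPM in obesity beside 3.03 CPM in control, and Spc25 was at 2.30 CPM in control.

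Genes that act before S phase were divided in direction. Of 7 G1 cyclin and kinase genes, 3 were lower with resveratrol than in obesity, where 45.1% of all tested genes were. Their median log2 difference was 0.00. Leaving out resveratrol library 1, 4 were lower, where 48.8% of all genes were, and the median was -0.08. Cdk6, a partner of D-type cyclins, was at 22.6 and 22.8 CPM under resveratrol, against 31.3 and 35.1 CPM in obesity, with separate groups. Ccnd1, cyclin D1, stood out in resveratrol library 1 with 177 CPM, against 37.9 CPM in library 2, 32.3 and 48.5 CPM in obesity and 34.8 CPM in control. Ccnd2, cyclin D2, ran the other way, at 87.3 and 276 CPM under resveratrol, 300 and 346 CPM in obesity and 18.1 CPM in control. Cdk2, the kinase that cyclin E activates, was at 15.4 and 32.1 CPM under resveratrol, against 28.2 and 30.2 CPM in obesity. Myc, a growth-promoting transcription factor, was at 15.6 and 24.2 CPM in obesity and 5.23 CPM in control.

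Of the 7 cell cycle inhibitor genes, 3 were lower with resveratrol than in obesity, where 45.1% of all tested genes were. The median gene reached 41.9% (resveratrol library 1) and 115% (resveratrol library 2) of its level in obesity. Cdkn1a, the p21 inhibitor and a target of p53, was at 30.1 and 129 CPM under resveratrol, 118 and 149 CPM in obesity and 18.3 CPM in control. Cdkn1b, the p27 inhibitor, was at 67.4 and 37.7 CPM under resveratrol, against 37.2 and 30.4 CPM in obesity, and Cdkn1c, the p57 inhibitor, at 17.9 and 29.1 CPM under resveratrol against 21 and 19.2 CPM in obesity. Cdkn2c, an inhibitor of CDK4 and CDK6, was at 53.1 and 143 CPM under resveratrol, 117 and 136 CPM in obesity and 13.2 CPM in control. Cdkn2a, the INK4A and ARF locus, was at 1.30 and 2.09 CPM in obesity and at a count of 0 in control. With library 1 left out, 1 of the 7 was lower, where 48.8% of all genes were. The median log2 difference was then 0.22, against 0.14 with library 1. Resveratrol library 2 lay within the obesity range for Cdkn1a and above it for Cdkn1b, Cdkn1c and Cdkn2c.

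Of 13 E2F and pocket protein genes tested, 11 were lower with resveratrol, where 45.1% of all genes were, with a median log2 difference of -0.49. With resveratrol library 1 left out, 8 of the 13 were lower, where 48.8% of all genes were, and the median was -0.08. The genes with the smallest p were Tfdp1, the DNA-binding partner of E2F, E2f8, a repressor E2F, Lin9, a MuvB subunit, and the pocket protein gene Rbl1. Tfdp1 was at 28.5 and 31.4 CPM under resveratrol, against 42.9 and 37.6 CPM in obesity, and E2f8 at 0.772 and 2.72 CPM under resveratrol against 4.12 and 5.42 CPM in obesity. Lin9 was at 3.63 and 5.67 CPM under resveratrol against 7.61 and 6.94 CPM in obesity, and Rbl1 at 10.2 and 16.5 CPM under resveratrol against 16.1 and 22.7 CPM in obesity. Rbl1 was the one of the 4 with overlapping groups. Against control, E2f6 was at 33.9 and 46.7 CPM in obesity beside 13.3 CPM in control, and E2f8 at 0.418 CPM in control.

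The cell cycle genes can be set beside markers of cells that are known to divide in obese fat. In resveratrol library 2 the mitosis sum stood at 66.8% and the replication sum at 73.8% of the obesity mean, beside 113% for macrophage, 187% for endothelial and 127% for progenitor markers. In resveratrol library 1 the mitosis sum stood at 24.8% beside 15.7% for macrophage, 33.1% for endothelial and 108% for progenitor markers. In the control library it stood at 14.0% beside 6.08%, 21.4% and 63.4% for these lists, and the part of these cells in the cell cycle levels was not tested. The progenitor markers differed among themselves in each of these libraries. They ran from 28.1% to 335% of their obesity means in resveratrol library 1 and from 74.2% to 529% in library 2. In control they ran from 5.70% to 926%. Dcn had 531 and 355 CPM in obesity against 109 CPM in control, whereas Dpp4 had 7.04 and 10.7 CPM in obesity against 82.1 CPM in control. Relative to obesity, B cell markers were at 558% in resveratrol library 2 and 101% in library 1, and T cell markers at 96.6% and 150%, all from sums of at most 31.0 CPM. Erythroid markers were at 180% and 32.8% in resveratrol libraries 2 and 1. The mesothelial sums were at 270% and 269%, but Krt19 made up 206 of the 213 CPM in resveratrol library 1, and the median mesothelial marker stood at 842% in library 2 and 74.1% in library 1. The testis germ cell sums were at 46.2% and 18.6%, which describes Sycp3, at 15.7 and 16.9 of the 15.9 and 17.7 CPM in obesity. In control the germ cell list summed to 115 CPM, mostly from Prm2 and Smcp at 53.8 and 54.4 CPM, while Sycp3 had 0.348 CPM there and 1 of the 8 genes was at 0.

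**Figure D4:**
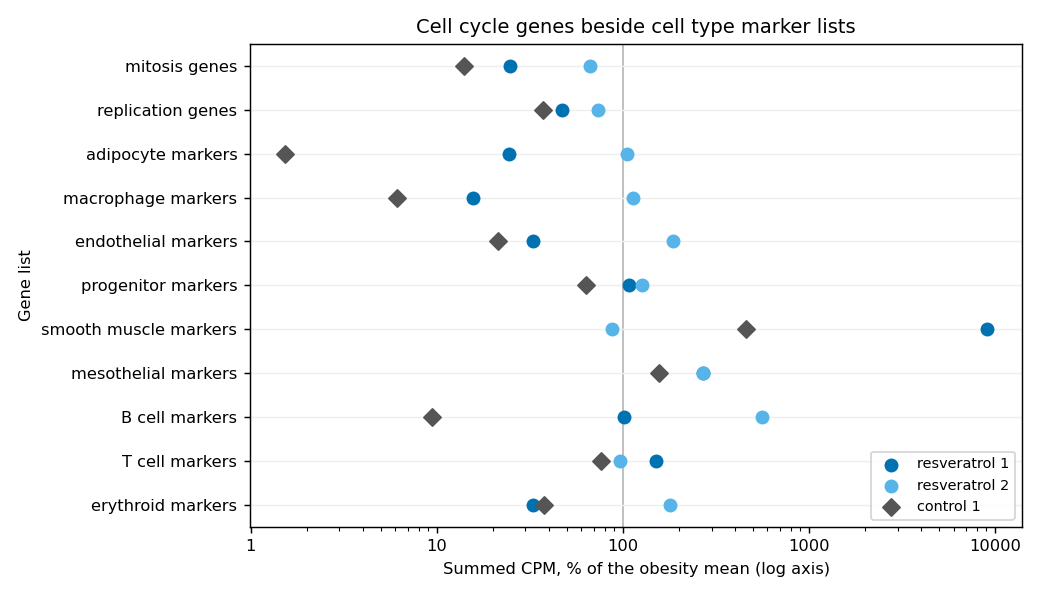
Summed TMM-scaled CPM of the cell cycle genes and of cell type marker lists as a percentage of the obesity mean, on a log axis, with 1 point per library for resveratrol 1, resveratrol 2 and control 1; the line at 100 is the obesity mean. In resveratrol library 2 the cell cycle sums lie at 66.8% and 73.8% while macrophage and adipocyte markers lie at 113% and 105%. The mesothelial sums of the resveratrol libraries coincide, although the median mesothelial marker stood at 74.1% in library 1 and 842% in library 2.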

How the data were processed

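RNA of 5 visceral fat libraries was measured by RNA-seq. Per the labels' protocols, RNA came from a lipid tissue kit and was made into stranded poly-A libraries. Per the submitters' processing notes, the deposited table holds raw counts made with featureCounts on GRCm39 after FastQC. For the aligner, annotation release, strand setting and versions, the status is: not given in the sources used here. Symbols came from GENCODE M21, which named 65.7% of the 78334 identifiers.

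Genes were kept by filterByExpr (settings min.count 10, min.total.count 15). TMM factors scaled the libraries, and CPM here means TMM-scaled CPM. One robust quasi-likelihood fit of all 5 libraries (edgeR 4.0.16, R 4.3.3) gave each comparison, adjusted with Benjamini-Hochberg over all 24779 tested genes at 0.05. Spread for the single control library was borrowed from the other groups, and likewise for a resveratrol or obesity library left alone when the other was left out. The SE is the absolute log2 difference divided by the square root of F. The fits were tested on simulated counts: of 100 genes changed 16-fold, 49% were recovered in resveratrol against obesity (22654 genes run) and 14% in obesity against control (22544 genes run). For 4-fold changes these shares were 2% and 1%. In resveratrol against control (22748 genes run) 1% of 16-fold and 0% of 4-fold changes were recovered. The simulation gave every gene the same spread between libraries, a coefficient of variation of 62.2% taken from the main fit. Unchanged genes had equal means in all groups. The shares describe that setting and not the members, whose spreads differ.

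The members and all gene lists were chosen with earlier results of these data known. The text names all 34 members and, per further list, up to 4 genes with the smallest p in resveratrol against obesity and up to 2 in obesity against control, at a mean of at least 1 CPM. Marker lists are given by their sums, and the smooth muscle and epididymis lists also by their 2 most abundant genes. Percentages are of a gene's or list's mean over both obesity libraries. Alternatives were median-ratio scaling, no filter, a stricter filter of 1 CPM, DESeq2 1.42.0, only the groups compared, a replicate block, and leaving out libraries. Figures were drawn with matplotlib 3.10.9.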

Additional observations from a re-analysis of the deposited data

How the results depend on the processing

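Both class medians kept their direction in each comparison under every alternative run. The median log2 difference of the mitosis genes in resveratrol against obesity, -1.10, ran from -1.996 (resveratrol library 2 left out) to -0.49 (resveratrol library 1 left out). That of the replication genes, -0.74, ran from -1.23 to -0.40 in the same fits. In resveratrol against control the mitosis median of 1.61 was 0.72 without resveratrol library 2 and 2.11 without library 1. Leaving out the control library and resveratrol library 1 together, an alternative chosen after seeing the data, gave -0.49 for the mitosis genes and 66 called genes. Over all genes edgeR called 0 in each comparison. In resveratrol against obesity 25 were called with no filter, 219 by DESeq2, and 0 to 4761 when 1 library was left out (33 without resveratrol library 1, 4761 without library 2). In obesity against control these counts were 2575, 4524 and 0 to 9227, with 9269 in a fit of only the groups compared; in resveratrol against control they were 1671, 3085 and 0 to 7470. The cause was not tested. Total-count scaling, also added after seeing the data, put the median of all genes in obesity against control at -0.23 in place of -0.10, and all 34 members were still higher. Without resveratrol library 1 the log2 differences of Ccnd1, Cdk2 and Cdkn2c in resveratrol against obesity turned to -0.08, 0.15 and 0.19, and to -0.081, 0.15 and 0.19 without the control library as well, whereas without resveratrol library 2 they were 2.13, -0.92 and -1.25. Without resveratrol library 2 that of Cdkn1c turned to -0.16, against 0.54 without resveratrol library 1. The replicate numbers share no stated source, and the deviations of same-numbered libraries correlated at 0.28; with the replicate block 0 genes were called in each comparison, and the mitosis median in resveratrol against obesity was -1.33. Counting error is widest for Bub1 in resveratrol library 1 and Aurkb in control, at 11 and 13 counts.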

Other observations

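Per length of exon, the obesity means of the replication genes ran from 0.820 CPM per kb for Cdc6 to 18.1 CPM per kb for Pcna, and those of the mitosis genes from 1.03 CPM per kb for Ccnb1 to 9.61 CPM per kb for Ube2c. E2f1, Mcm3 and Mcm6 followed Pcna at 11.1, 10.4 and 9.91 CPM per kb, and Ccnb2 followed Ube2c at 8.27 CPM per kb. The MCM helicase subunits ran from 3.39 CPM per kb for Mcm2 to 10.4 CPM per kb for Mcm3. Exon length here joins all exons annotated for a gene in GENCODE M21, and is not the length of the RNA expressed. It was 6.96 kb for Mcm2 and 3.75 kb for Mcm3, so these values do not compare numbers of RNA molecules.

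The mitosis sum was 22.6% and 8.48% of the macrophage marker sum in resveratrol libraries 1 and 2, 13.3% and 15.4% in obesity libraries 1 and 2, and 33.0% in control. The replication sum was 58.9% and 12.8% of it with resveratrol, 16.7% and 22.5% in obesity and 119% in control. On this scale resveratrol library 2 was the lowest library for both classes and the control library the highest, so the order of the libraries differed from the order by CPM. For both classes it was the order of the macrophage sum reversed. That sum was lowest in control, at 118 CPM, then 306 CPM in resveratrol library 1, and highest in resveratrol library 2, at 2195 CPM. The order thus followed the divisor, and these ratios cannot be read as cell cycle levels per macrophage.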
